A study of Mus musculus with 12 samples.

Results

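Dendritic cells that restrain T cells do so through secreted cytokines, through enzymes that use up tryptophan or make retinoic acid, and through surface ligands of inhibitory receptors. The 10 genes described here cover these routes. They are the cytokines Il10 and Tgfb1, the enzymes Ido1, Ido2 and Aldh1a2, the PD-1 ligands Cd274 and Pdcd1lg2, the galectin Lgals9 with its receptor Havcr2, and the inhibitory B7-like gene Vsir. They were picked by symbol from the 41709 genes of the count tables, and all 10 were found.

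RNA-seq libraries of bone marrow-derived dendritic cells (BMDCs) were compared between CD18fl/fl mice and CD18CD11c cKO mice. Both genotypes carry floxed alleles of Itgb2, the gene of the β2 integrin chain CD18, and the CD18CD11c cKO mice in addition carry a Cre recombinase driven by the CD11c promoter, so that a culture may hold cells in which Cre was not active. Bone marrow was cultured for 10 days with GM-CSF, cells were left unstimulated or received 100 ng/mL LPS for 24 h, and MHCII+ cells were isolated. LPS is a bacterial cell wall component that activates dendritic cells. Each of the 4 groups had 3 libraries. The labels do not say whether the replicates came from separate mice or cultures, so p-values measure the spread between these libraries only. No age of the mice was given. As RNA was taken from bulk cultures, fewer cells of a type and less RNA per cell cannot be told apart.

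The libraries held between 29689149 and 34037178 total gene reads, and levels are given as CPM, gene reads scaled to a common library size after TMM normalization. Itgb2 measured 394 ± 23.0 CPM (SD, n = 3) in unstimulated CD18fl/fl and 158 ± 34.8 CPM (SD, n = 3) in unstimulated CD18CD11c cKO BMDCs, with no overlap between libraries, and 202 ± 56.2 against 107.5 ± 15.6 CPM (SD, n = 3 each) after LPS. These gene counts do not separate the deleted exon from the rest of the transcript. All 10 markers of dendritic cells were above 3 reads in every group, and their summed level ranged from 12831 to 33400 CPM over the libraries. The largest parts came from H2-Ab1, H2-Aa and Cd74, at 6389, 5790.5 and 5033 of 19900 CPM in unstimulated CD18fl/fl library 1. As the cells were isolated as MHCII+, this sum is no separate evidence of cell type. Flt3 ranged from 0.227 to 35.4 CPM and Zbtb46 from 19.5 to 37.2 CPM. Markers of macrophages and monocytes summed to between 1211 and 2542 CPM, and those of neutrophils to between 61.0 and 1700 CPM. The neutrophil sum was 1700, 511 and 156.5 CPM in unstimulated CD18fl/fl libraries 1, 2 and 3, and at most 112 CPM after LPS in either genotype. Markers of T cells, NK cells and plasmacytoid dendritic cells each summed to at most 33.8 CPM in any library. The libraries numbered 3 stood apart in all groups. Markers of B cells summed to between 0.636 and 2.54 CPM in the libraries numbered 3 and to between 8.64 and 137.7 CPM in the others, and markers of mast cells and basophils to between 38.3 and 164.6 against between 8.29 and 22.8 CPM. The latter list was not uniform: Cpa3 and Gata2 were above both other replicates in all 4 groups, Prss34 was below both in all 4, and Mcpt8, Fcer1a and Ms4a2 were mixed. In addition, 4 Y-linked genes together had 0 and 2 reads in the CD18CD11c cKO libraries numbered 3 and between 3039 and 8842 reads in the other 10 libraries. The part of these differences in the results below was not tested. Fold changes are therefore given without and, where it alters a call, with the replicate number as a block.

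By level per kb of exon, 4 genes were scarce. In unstimulated CD18fl/fl BMDCs, Tgfb1 came first at 54.1 ± 22.5 CPM per kb (SD, n = 3), followed by Cd274 (35.9 ± 29.7), Vsir (31.8 ± 10.8), Pdcd1lg2 (31.1 ± 17.8) and Lgals9 (29.0 ± 4.23). These 5 neighbours in the order overlapped between libraries. Aldh1a2 followed at 5.80 ± 2.57 CPM per kb and overlapped neither Lgals9 above nor Havcr2 below. Havcr2, Ido1, Ido2 and Il10 had mean levels between 0.474 and 1.25 CPM per kb and overlapped their neighbours. After LPS, Cd274 came first in both genotypes, at 231 ± 54.1 CPM per kb in CD18fl/fl BMDCs (no overlap with Pdcd1lg2, the next) and at 124 ± 35.9 in CD18CD11c cKO BMDCs (overlap with Pdcd1lg2). Vsir moved from rank 3 to rank 6 with LPS in CD18fl/fl BMDCs, and held rank 6 in CD18CD11c cKO BMDCs in both states. Havcr2, Ido1, Ido2 and Il10 held the last 4 ranks in all 4 groups, and Havcr2 overlapped Vsir, the next above, in LPS-treated CD18CD11c cKO BMDCs only.

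**Figure D1:**
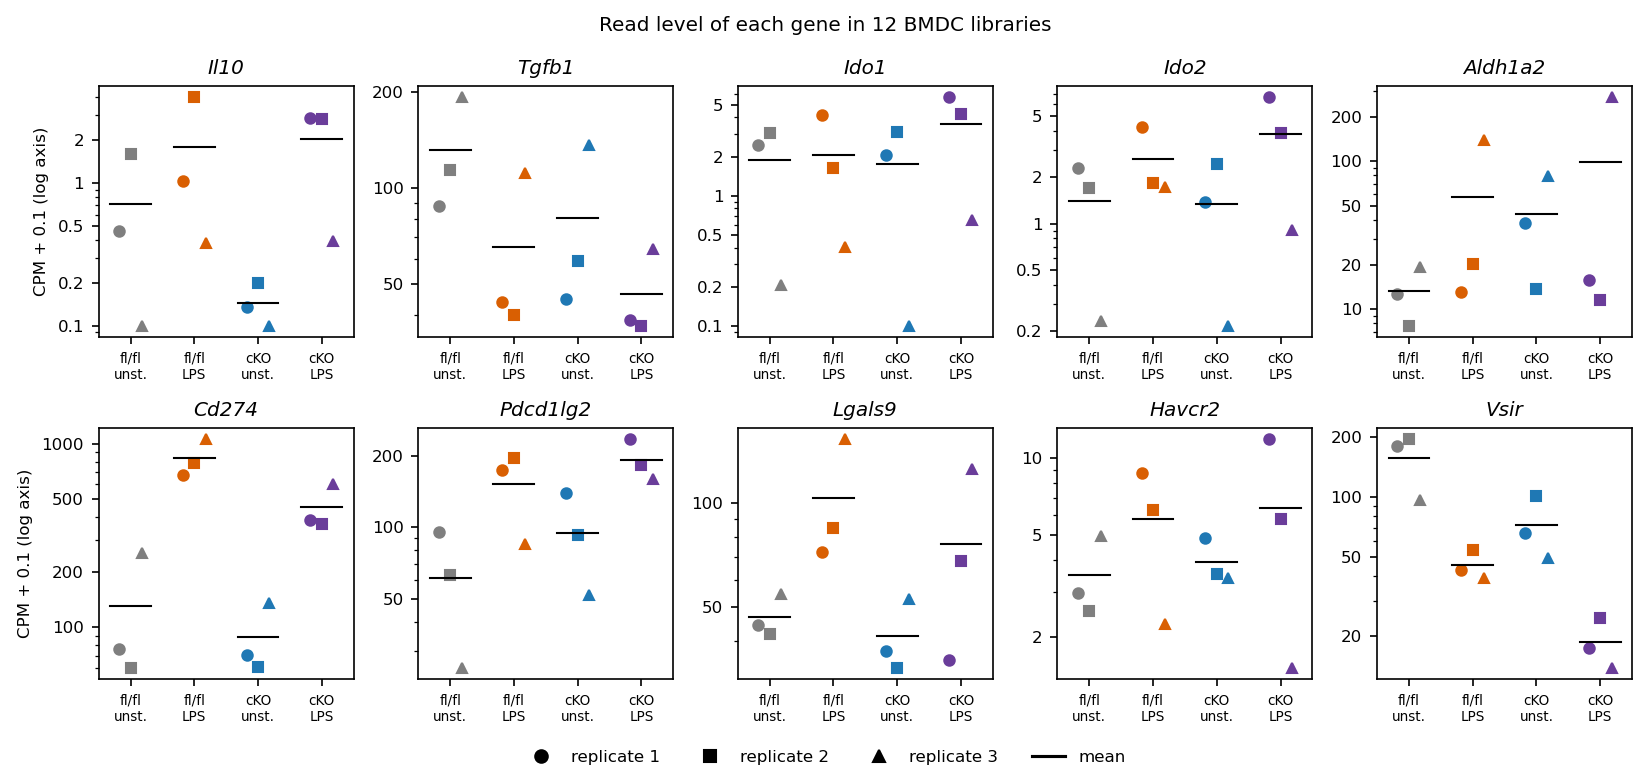
Level of each gene in every library, as CPM plus 0.1 on log axes that differ between panels. Symbols mark the replicate numbers, colours the 4 groups and bars the group means (n = 3). Vsir was lower after LPS in every library of either genotype, Cd274 was higher, and the triangles of replicate 3 lie on 1 side of the circles and squares in all groups for 9 of the 10 genes.

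Libraries numbered 3 differed from the others in most of these genes, and in opposite directions. For Tgfb1, Aldh1a2, Cd274 and Lgals9, replicate 3 was above both other replicates in all 4 groups. For Il10, Ido1, Ido2, Pdcd1lg2 and Vsir, it was below both in all 4 groups. Havcr2 was below both in 3 groups and above both in unstimulated CD18fl/fl BMDCs. The gap was wide for Aldh1a2 in LPS-treated CD18CD11c cKO BMDCs, where replicate 3 was 4.31 higher on the log2 scale than the mean of replicates 1 and 2, and for Ido1 in unstimulated CD18fl/fl BMDCs, where the log2 ratio was -4.62. No ratio was formed where replicate 3 had 0 reads, as for Ido1 in unstimulated CD18CD11c cKO BMDCs (2.46 CPM in the mean of replicates 1 and 2) and for Il10 in both unstimulated groups. Among the dendritic cell markers, Flt3, Ccr7, Dpp4, H2-Ab1 and H2-Aa were likewise below and Itgax and Irf4 above both other replicates in all 4 groups. Cd74, Zbtb46 and Ciita were mixed.

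Promoter windows of 300 bases, from 250 bases before to 50 bases after the transcription start, were found in RefSeq (table of build GRCm38.p6) for 7 of the 10 genes, with none for Il10, Ido1 and Ido2. Each window matched the GRCm39 genome exactly and at 1 place, and positions are given for GRCm39. The 250 bases before the start are shown for Vsir, the gene called with LPS in both genotypes, and, chosen after their values were seen, for Cd274 and Lgals9, which had no overlap between states in CD18fl/fl BMDCs. They are written 5′ to 3′ in the direction of transcription, with capitals for a match to a searched motif. The sequences lie at chr10:60182380-60182629 (plus strand) for Vsir, at chr19:29344588-29344837 (plus strand) for Cd274 and at chr11:78875751-78876000 (minus strand) for Lgals9. The gene start in the count tables was the same as in RefSeq for Vsir, 17 bases downstream for Cd274 and 22 bases upstream for Lgals9.
Vsir: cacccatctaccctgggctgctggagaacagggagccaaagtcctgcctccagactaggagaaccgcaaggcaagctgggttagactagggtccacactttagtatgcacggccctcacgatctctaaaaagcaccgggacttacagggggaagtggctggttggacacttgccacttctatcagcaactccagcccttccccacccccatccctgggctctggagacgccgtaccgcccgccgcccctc
Cd274: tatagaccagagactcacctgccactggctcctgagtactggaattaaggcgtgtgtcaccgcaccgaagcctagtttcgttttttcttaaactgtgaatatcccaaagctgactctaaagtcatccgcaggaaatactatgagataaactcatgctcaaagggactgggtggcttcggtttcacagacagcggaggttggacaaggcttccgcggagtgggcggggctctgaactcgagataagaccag
Lgals9: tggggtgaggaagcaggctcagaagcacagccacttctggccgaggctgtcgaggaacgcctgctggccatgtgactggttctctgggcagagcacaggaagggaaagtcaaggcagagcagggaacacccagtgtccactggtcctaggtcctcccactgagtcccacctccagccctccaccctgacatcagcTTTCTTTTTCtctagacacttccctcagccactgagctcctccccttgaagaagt

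Motif letters searched on both strands of the whole windows were the interferon-stimulated response element core, GAAA and GAAA with 2 bases of any kind between them (in 3.44% of 32851 promoter windows), the STAT element, TTC and GAA 3 bases apart (8.3%), the AP-1 element TGANTCA (7.81%), the NF-κB element, GGGA and TTCC 2 bases apart (1.47%) and the retinoic acid receptor element, AGGTCA repeated after 5 bases of any kind (0.00913%). Lgals9 held the interferon element on the opposite strand of its window at 2 places, as TTTCTTTTTC starting 55 bases before and as TTTCTGTTTC starting at base 16 after the start. No matches overlapped each other, and the only other one was TGATTCA, an AP-1 element, 200 bases before the start of Havcr2. The windows of Tgfb1, Aldh1a2, Cd274, Pdcd1lg2 and Vsir held none of these letters. By base composition the windows ranged from 45.3% GC for Havcr2 and 46% for Pdcd1lg2 to 77% for Tgfb1 and 78% for Aldh1a2, against a median of 52.7% over all windows. Aldh1a2 had 50 and Tgfb1 30 CG dinucleotides, Vsir and Cd274 15 each, and Pdcd1lg2, Havcr2 and Lgals9 3 to 4, against a median of 7.

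LPS changed few of the 10 genes past the threshold without the block. In CD18fl/fl BMDCs, 1 of 10 was called (Vsir, lower), where 3.89% of the 12744 genes tested were. Among CD18CD11c cKO libraries, 2 of the 9 that passed the filter on low counts were called (Vsir lower and Cd274 higher), against 3.99% of 12687 genes, and Il10 did not pass it. With the replicate block, 5 of 10 were called in CD18fl/fl BMDCs (Cd274, Pdcd1lg2 and Lgals9 higher, Tgfb1 and Vsir lower), where 12.8% of all genes were. The block gave 3 of 9 calls in CD18CD11c cKO BMDCs (Cd274 and Pdcd1lg2 higher, Vsir lower), where 20.2% of all genes were. The median log2 fold change of the 10 genes with LPS in CD18fl/fl BMDCs was 1.04, against -0.02 over all genes tested. In CD18CD11c cKO BMDCs it was 0.98 over the 9 genes, against -0.01. Groups did not overlap for 3 of 10 genes in CD18fl/fl (Vsir, Lgals9 and Cd274, where 29.5% of all genes did not) and for 3 of the 9 tested in CD18CD11c cKO BMDCs (Vsir, Cd274 and Pdcd1lg2, where 28.1% did not). DESeq2 called 4 of 10 in CD18fl/fl (Aldh1a2, Cd274 and Lgals9 higher, Vsir lower, against 12.8% of all genes) and 3 in CD18CD11c cKO BMDCs (Cd274 and Il10 higher, Vsir lower, against 10.7%). From replicates 1 and 2 only, edgeR called 6 of 10 in CD18fl/fl (the 5 called with the block and Havcr2, higher), where 47.5% of all genes were called, and 3 in CD18CD11c cKO BMDCs (Il10, Cd274 and Vsir), where 15.9% were. There Il10 passed the filter on low counts only through its LPS-treated libraries, in which it was high. Its DESeq2 call rests on the same libraries, with 4 reads unstimulated against 139 after LPS.

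**Figure D2:**
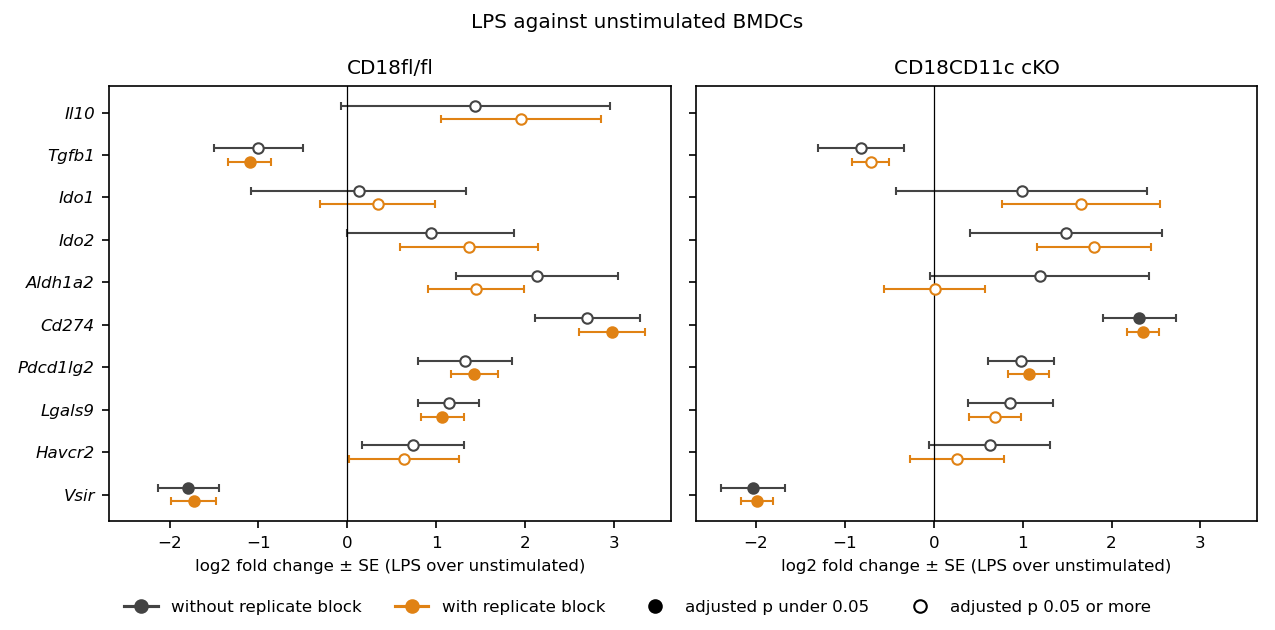
Log2 fold change of LPS-treated over unstimulated BMDCs with its standard error, for CD18fl/fl (left) and CD18CD11c cKO (right, without Il10, which did not pass the filter on low counts). Grey points are without and orange points with the replicate block, and filled points had an adjusted p under 0.05. Vsir lies near -2 and Cd274 above 2 in both genotypes, with shorter error bars under the block.

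Vsir encodes VISTA, an inhibitory B7-like protein of myeloid and T cells (ENSMUSG00000020101, GRCm39 chromosome 10, 60182630 to 60208463, plus strand). In CD18fl/fl BMDCs it measured 180, 195 and 96.2 CPM in the unstimulated libraries 1, 2 and 3, and 43.1, 54.2 and 39.0 CPM in the LPS-treated ones. In CD18CD11c cKO BMDCs it measured 66.1, 101.8 and 49.3 CPM unstimulated and 17.2, 24.6 and 13.7 CPM after LPS. Every LPS-treated library lay below every unstimulated library of its genotype, and the unstimulated CD18CD11c cKO and LPS-treated CD18fl/fl libraries overlapped. Vsir fell with LPS 3.45-fold in CD18fl/fl (log2 fold change -1.79, SE 0.34, edgeR adjusted p = 0.0391) and 4.08-fold in CD18CD11c cKO BMDCs (-2.03, SE 0.36, adjusted p = 0.0342). The calls were kept with the block. When replicate 1 or 2 of either state was left out, adjusted p rose to at most 0.171 and 0.137, but these fits called 0 genes of any kind in CD18fl/fl and at most 21 higher and 5 lower in CD18CD11c cKO BMDCs. The log2 fold change of Vsir then stayed between -1.93 and -1.60 in CD18fl/fl and between -2.25 and -1.69 in CD18CD11c cKO BMDCs. The gene overlaps Cdh23 on the opposite strand, which was assigned 3747 reads over the 12 libraries against 30241 for Vsir, and no strand setting of the counting was given, so reads of both cannot be told apart where they overlap.

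Cd274 encodes PD-L1 and Pdcd1lg2 encodes PD-L2, the ligands of the inhibitory receptor PD-1. They are neighbours on GRCm39 chromosome 19 (29344855 to 29365495 and 29388319 to 29448561, both plus strand), 22823 bases apart with no other gene of the count tables between them. Cd274 measured 76.4, 59.9 and 254 CPM in unstimulated and 676, 783 and 1056 CPM in LPS-treated CD18fl/fl libraries. The CD18CD11c cKO libraries gave 70.5, 60.9 and 135 CPM unstimulated and 386, 365 and 600 CPM after LPS. States did not overlap in either genotype, and the LPS-treated CD18CD11c cKO libraries all lay below the LPS-treated CD18fl/fl libraries. Cd274 rose with LPS in CD18CD11c cKO BMDCs (log2 fold change 2.31, SE 0.41, edgeR adjusted p = 0.0342, 4.95-fold), a call that was lost with scaling to library size and, in the same fits with few calls, without replicate 1 or 2 of either state (2.10 to 2.46, adjusted p up to 0.143). In CD18fl/fl BMDCs its log2 fold change of 2.70 (SE 0.59) had an adjusted p of 0.057, and it passed with the block (2.98, SE 0.37, adjusted p = 0.00811).

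Pdcd1lg2 moved less and had the opposite order of replicates. It measured 95.2, 62.6 and 25.4 CPM in unstimulated and 175, 197 and 85.0 CPM in LPS-treated CD18fl/fl libraries. Libraries of CD18CD11c cKO BMDCs gave 140.2, 92.4 and 51.8 CPM unstimulated and 235, 184 and 159.8 CPM after LPS. It was higher after LPS in all 3 same-numbered pairs of each genotype, and states overlapped in CD18fl/fl only. The log2 fold changes were 1.32 (SE 0.53, edgeR adjusted p = 0.193) in CD18fl/fl and 0.98 (SE 0.37, adjusted p = 0.185) in CD18CD11c cKO BMDCs, and both passed with the block (1.43, SE 0.26, adjusted p = 0.0232, and 1.07, SE 0.23, adjusted p = 0.0201). An antisense gene, A930007I19Rik, overlaps Pdcd1lg2 and was assigned 13190 reads, none of them in its exons. Pdcd1lg2 was assigned 44350 reads, and here, too, strands cannot be told apart.

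Per kb of exon, the PD-1 ligands changed places with LPS in some of the same-numbered pairs only. In unstimulated libraries 1 and 2, Cd274 was below Pdcd1lg2, with ratios of 0.435 and 0.518 in CD18fl/fl and of 0.272 and 0.357 in CD18CD11c cKO BMDCs. After LPS the ratios in these libraries were 2.09 and 2.15 in CD18fl/fl and 0.887 and 1.07 in CD18CD11c cKO BMDCs. In the libraries numbered 3, Cd274 exceeded Pdcd1lg2 in every group, by a ratio of 5.41 unstimulated and 6.73 after LPS in CD18fl/fl and of 1.41 and 2.03 in CD18CD11c cKO BMDCs. Within each replicate number and state, the ratio was lower in CD18CD11c cKO than in CD18fl/fl BMDCs.

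**Figure D3:**
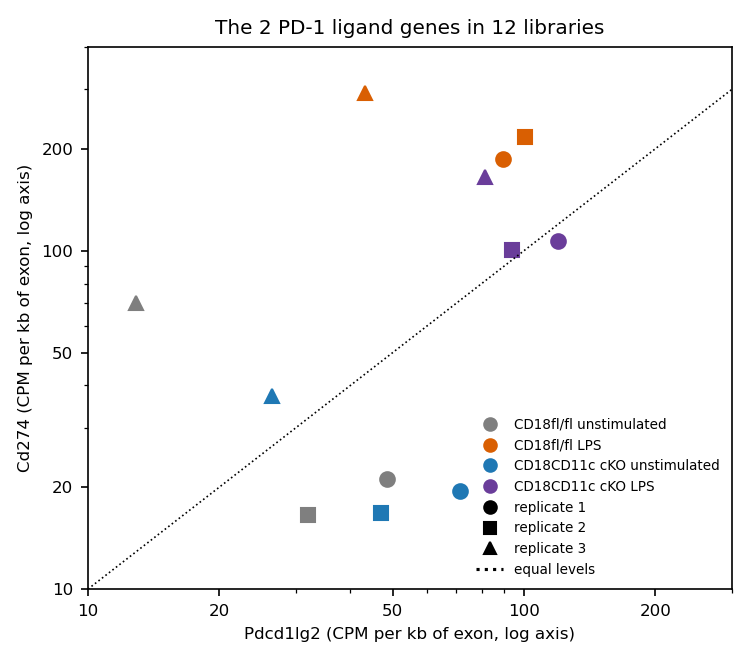
Cd274 against Pdcd1lg2 in the 12 libraries, as CPM per kb of exon on log axes. Colours mark the 4 groups and symbols the replicate numbers, and the dotted line marks equal levels. The unstimulated libraries 1 and 2 lie below the line, and all libraries numbered 3 and the LPS-treated CD18fl/fl libraries lie above it.

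Lgals9 encodes galectin-9, and Havcr2 encodes its receptor TIM-3, an inhibitory receptor of T cells that dendritic cells also carry. Lgals9 measured 44.3, 41.7 and 54.6 CPM in unstimulated and 72.2, 84.8 and 152 CPM in LPS-treated CD18fl/fl libraries, which did not overlap. CD18CD11c cKO BMDCs had 37.4, 33.4 and 52.7 CPM unstimulated and 35.3, 68.0 and 125 CPM after LPS, where library 1 stayed in the unstimulated range. The log2 fold changes with LPS were 1.14 (SE 0.34, edgeR adjusted p = 0.106) and 0.86 (SE 0.48, adjusted p = 0.351). With the block, the first passed (1.07, SE 0.24, adjusted p = 0.04) and the second did not (0.69, SE 0.29, adjusted p = 0.138). The first was called in 4 of 16 alternatives, and was lost with the block and an exon length offset (1.01, SE 0.26, edgeR adjusted p = 0.056). Havcr2 measured 2.88, 2.43 and 4.86 CPM in unstimulated and 8.67, 6.17 and 2.16 CPM in LPS-treated CD18fl/fl libraries. In CD18CD11c cKO it measured 4.77, 3.43 and 3.29 CPM unstimulated and 11.7, 5.66 and 1.42 CPM after LPS. Libraries 1 and 2 were higher and library 3 was lower after LPS in both genotypes, and neither log2 fold change passed (0.74, SE 0.57, and 0.63, SE 0.68). Per kb of exon, Lgals9 exceeded Havcr2 in every library, by a ratio between 5.09 and 148.

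Tgfb1 encodes TGF-β1, a cytokine that favours regulatory T cells. It measured 87.5, 114 and 193 CPM in unstimulated and 43.8, 39.7 and 112 CPM in LPS-treated CD18fl/fl libraries. In CD18CD11c cKO it measured 44.8, 59.0 and 137 CPM unstimulated and 38.3, 36.8 and 64.5 CPM after LPS. It was lower after LPS in all 3 same-numbered pairs of each genotype, while the states overlapped. The 2.01-fold lower level in CD18fl/fl BMDCs (SE 0.50 on the log2 scale, edgeR adjusted p = 0.267) passed with the block (-1.10, SE 0.24, adjusted p = 0.0377). That of -0.82 (SE 0.48, adjusted p = 0.378) in CD18CD11c cKO BMDCs did not (-0.71, SE 0.21, adjusted p = 0.0537 with the block).

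Il10 encodes the anti-inflammatory cytokine IL-10 and was scarce throughout. It had 13, 60 and 0 reads in unstimulated and 29, 105 and 11 reads in LPS-treated CD18fl/fl libraries. In CD18CD11c cKO it had 1, 3 and 0 reads unstimulated and 69, 61 and 9 reads after LPS. Every LPS-treated library held more reads than its same-numbered unstimulated library, and the LPS-treated and unstimulated CD18CD11c cKO libraries did not overlap. Summed over libraries, the level after LPS was 2.31 times the unstimulated one in CD18fl/fl BMDCs (exact 95% interval 1.73 to 3.11, 73 against 145 reads). In CD18CD11c cKO BMDCs the ratio was 41.4 (interval 15.8 to 154, 4 against 139 reads), and 3 of the 4 unstimulated reads were intronic. These intervals cover counting error only, and the libraries of a group differed by more. With the filter on low counts the change could be tested by edgeR in CD18fl/fl BMDCs only (log2 fold change 1.44, SE 1.51, adjusted p = 0.601). Without replicate 2 of the LPS-treated CD18fl/fl libraries it was -0.04. DESeq2, which applied its own filter, called Il10 higher after LPS in CD18CD11c cKO BMDCs (5.38, adjusted p = 0.00121), as did edgeR with replicates 1 and 2 only (5.14, SE 0.99, adjusted p = 0.0199). It was called in 3 of the 8 settings that kept it, and not by edgeR without a filter (5.23, SE 1.44, adjusted p = 0.0642) or in 1 fit on 12 libraries (5.33, SE 1.81, adjusted p = 0.0999), with adjusted p up to 0.262 over the 8. With replicates 1 and 2 only, or with 1 library left out, Il10 passed the filter only through LPS-treated libraries 1 and 2 (69 and 61 reads). It was high in these libraries, so edgeR calls from such settings are no separate support. The DESeq2 call is none either, as it rests on the same LPS-treated libraries, with 4 reads unstimulated against 139 after LPS.

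Ido1 and Ido2 encode indoleamine 2,3-dioxygenases, which break down tryptophan, and are neighbours on GRCm39 chromosome 8 (25074152 to 25087025 and 25021908 to 25066349, minus strand), 7802 bases apart. Ido1 measured 2.36, 2.91 and 0.107 CPM in unstimulated and 4.05, 1.52 and 0.305 CPM in LPS-treated CD18fl/fl libraries. In CD18CD11c cKO it measured 1.96, 2.97 and 0 CPM unstimulated and 5.59, 4.18 and 0.55 CPM after LPS. A floor of 3 reads corresponds to between 0.0881 and 0.101 CPM, so that replicate 3 was close to or below the limit of detection before LPS. Ido2 ranged from 0.116 to 6.52 CPM over the 12 libraries and was higher after LPS in all same-numbered pairs of both genotypes. Of its 769 reads, 46.6% were intronic, against between 0.52% and 11.8% for the other 9 genes. Neither gene passed the edgeR test with LPS in either genotype, with or without the block (log2 fold changes without it of 0.13, SE 1.21, and 0.99, SE 1.41, for Ido1 and of 0.94, SE 0.94, and 1.49, SE 1.08, for Ido2).

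Aldh1a2 encodes a retinal dehydrogenase that makes retinoic acid, a signal with which dendritic cells induce gut-homing and regulatory T cells. It measured 12.6, 7.60 and 19.2 CPM in unstimulated and 13.0, 20.1 and 139 CPM in LPS-treated CD18fl/fl libraries. In CD18CD11c cKO it measured 38.3, 13.5 and 79.5 CPM unstimulated and 15.7, 11.4 and 270 CPM after LPS. The 2 highest values were both LPS-treated libraries numbered 3. Same-numbered pairs of CD18CD11c cKO BMDCs went in different directions, with log2 ratios of -1.28, -0.24 and 1.76. The log2 fold change with LPS there was 1.19 (SE 1.23, edgeR adjusted p = 0.637), but -1.03 (SE 0.48, adjusted p = 0.195) with replicates 1 and 2 only. In CD18fl/fl BMDCs it was 2.13 (SE 0.91, adjusted p = 0.21), and 0.71 (SE 0.29, adjusted p = 0.06) with replicates 1 and 2 only.

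Between genotypes, no gene of the 10 was called without the block in either state, nor was any of the 12876 genes tested unstimulated or of the 12441 tested after LPS (0% of each). At an unadjusted p under 0.05, edgeR counted 1395 genes higher and 764 lower in unstimulated CD18CD11c cKO BMDCs, and 770 higher and 442 lower after LPS. DESeq2 called 491 higher and 47 lower unstimulated (6.03% of genes), with Aldh1a2 as the only one of the 10 (DESeq2 adjusted p = 0.0499). In that fit Il10, Ido1, Ido2 and Havcr2 were given no adjusted p and could not be called. After LPS it called 141 higher and 9 lower (1.3%), with Vsir as the only one of the 10 (DESeq2 adjusted p = 0.0462). Once the block was added, 4 of the 9 tested were called unstimulated (Aldh1a2 and Pdcd1lg2 higher, Tgfb1 and Vsir lower), where 20.2% of all genes were. After LPS, 2 of 10 were called with it (Vsir and Cd274, both lower), where 10.1% of all genes were. Genotypes did not overlap for 0 of 9 genes unstimulated (24.8% of all genes) and for 2 of 10 after LPS (17.6%). With replicates 1 and 2 only, edgeR called Vsir unstimulated (10.6% of all genes) and Vsir and Cd274 after LPS (4.22%), all lower in CD18CD11c cKO BMDCs.

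**Figure D4:**
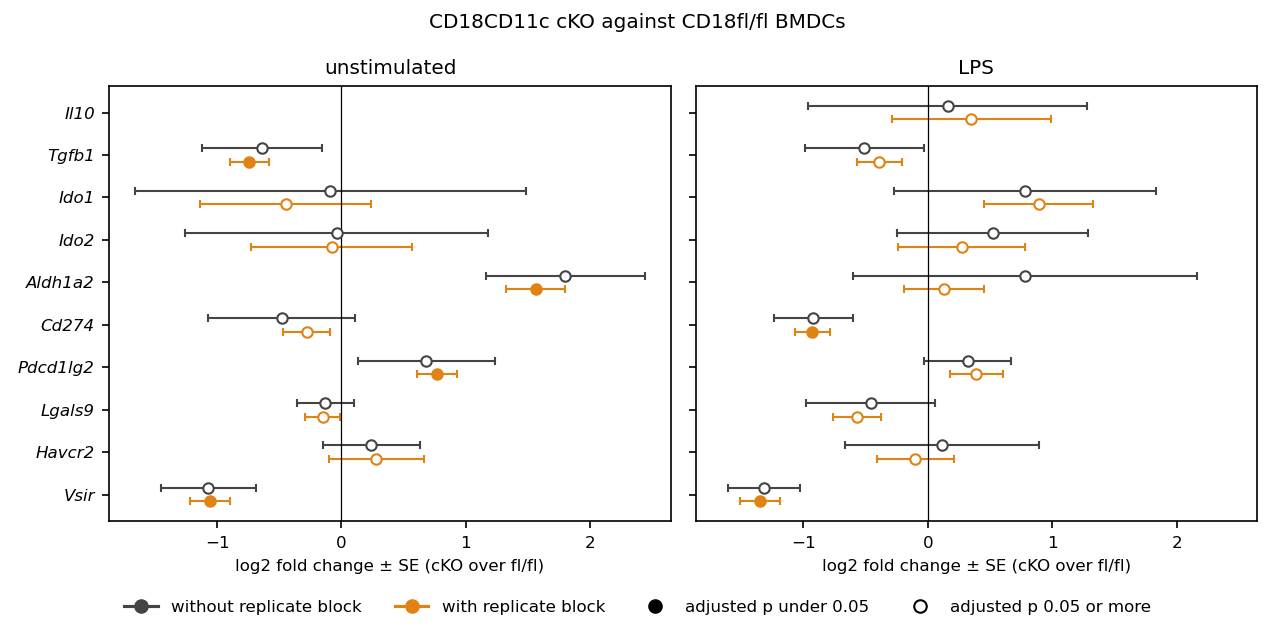
Log2 fold change of CD18CD11c cKO over CD18fl/fl BMDCs with its standard error, unstimulated (left, without Il10, which did not pass the filter on low counts) and after LPS (right). Grey points are without and orange points with the replicate block, and filled points had an adjusted p under 0.05. No grey point is filled, and Vsir is the gene with a filled orange point in both states.

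Vsir was lower in CD18CD11c cKO BMDCs in all 3 same-numbered pairs of both states. Unstimulated libraries overlapped between genotypes, since CD18fl/fl library 3 (96.2 CPM) lay below CD18CD11c cKO library 2 (101.8 CPM). LPS-treated libraries did not overlap. Without the block the log2 fold changes were -1.07 (SE 0.38, edgeR adjusted p = 0.241) and -1.32 (SE 0.29, adjusted p = 0.296). With it they were -1.06 (SE 0.16, adjusted p = 0.00623) and -1.35 (SE 0.16, adjusted p = 0.00677). Cd274 after LPS was lower in all 3 pairs, by log2 ratios of -0.81, -1.10 and -0.82. Its log2 fold change of -0.92 (SE 0.32, adjusted p = 0.449) became -0.93 (SE 0.14, adjusted p = 0.0109) with the block. In unstimulated BMDCs the difference in Cd274 was -0.48 (SE 0.59, adjusted p = 0.733), and with replicates 1 and 2 only it was 0.01 (SE 0.19).

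Pdcd1lg2 was higher in unstimulated CD18CD11c cKO BMDCs in all 3 pairs, with log2 ratios of 0.56, 0.56 and 1.03. The block moved its edgeR adjusted p from 0.572 (log2 fold change 0.68, SE 0.55) to 0.0177 (0.77, SE 0.16). This was its 1 call in 16 alternatives, lost with the block and an exon length offset (0.57, SE 0.16, adjusted p = 0.0631) and absent with replicates 1 and 2 only (0.62, SE 0.27, adjusted p = 0.165). Aldh1a2 was higher in all 3 unstimulated pairs (log2 ratios 1.59, 0.83 and 2.05), with a log2 fold change of 1.80 (SE 0.64, adjusted p = 0.241) that passed with the block (1.56, SE 0.24, adjusted p = 0.00634). Tgfb1 was lower in all 3 unstimulated pairs, with -0.64 (SE 0.48, adjusted p = 0.539) without and -0.74 (SE 0.16, adjusted p = 0.0189) with the block. After LPS none of these 3 passed, with block values of 0.39 (SE 0.21, adjusted p = 0.276) for Pdcd1lg2, 0.13 (SE 0.32, adjusted p = 0.823) for Aldh1a2 and -0.39 (SE 0.18, adjusted p = 0.208) for Tgfb1. Lgals9 was lower in CD18CD11c cKO BMDCs in all 3 pairs of both states and did not pass (block values -0.15, SE 0.14, and -0.57, SE 0.19). The remaining genes, Ido1, Ido2 and Havcr2 in both states and Il10 after LPS, did not pass with or without the block. Il10 in unstimulated BMDCs, which did not pass the filter on low counts, amounted to 4 reads in CD18CD11c cKO against 73 in CD18fl/fl libraries (ratio 0.067, exact 95% interval 0.0178 to 0.179 for counting error), of which 60 were in 1 CD18fl/fl library. It was called in 0 of the 8 other settings that kept it, for example without a filter (log2 fold change -3.66, SE 1.96, edgeR adjusted p = 0.51) or with replicates 1 and 2 only (-3.65, SE 1.36, adjusted p = 0.119). DESeq2 was among the 8 and gave Il10 no adjusted p there, so it could not call it.

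Whether LPS acted differently in the genotypes was tested as an interaction on all 12 libraries. None of the 10 genes passed, nor did any of the 13752 genes tested by edgeR (0%), of which 48 had an unadjusted p under 0.05 with a higher and 49 with a lower LPS effect in CD18CD11c cKO BMDCs. DESeq2 called 1 gene (0.00488% of those it tested), which is not among the 10. The estimates had wide intervals. For Vsir the interaction was -0.18 (SE 0.49, edgeR adjusted p = 1, 95% interval -1.25 to 0.90), for Cd274 it was -0.34 (SE 0.72, interval -1.93 to 1.24) and for Il10 it was 3.89 (SE 2.21, interval -0.96 to 8.74), all on the log2 scale. With the block, Il10 had an unadjusted p of 0.0175 (3.74, SE 1.34) and an edgeR adjusted p of 1.

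Genes of the pathways around the 10 were described from lists of 109 symbols, all of which were found. Of 20 B7 family genes and checkpoint partners, 16 passed the filter in CD18fl/fl and 17 in CD18CD11c cKO BMDCs, and LPS raised 2 and lowered 1 in each, where 3.89% and 3.99% of all genes were called. Cd86, a costimulatory ligand of CD28, rose from 185 ± 27.3 to 673 ± 74.0 CPM (SD, n = 3) in CD18fl/fl (log2 fold change 1.87, SE 0.25, edgeR adjusted p = 0.0164) and from 389.5 ± 99.4 to 1722 ± 255 CPM in CD18CD11c cKO BMDCs (2.10, SE 0.27, adjusted p = 0.0178). Cd86 was higher in CD18CD11c cKO than in CD18fl/fl BMDCs without overlap in both states, and passed with the block (adjusted p = 0.117 and 0.286 without it, against 1.11, SE 0.15, adjusted p = 0.00437, and 1.33, SE 0.13, adjusted p = 0.00641). After LPS, Cd86 and Cd274 were called with the block in opposite directions between genotypes. Without the block, Cd80, the other CD28 ligand, was the second gene raised in CD18CD11c cKO BMDCs (log2 fold change 2.58, SE 0.50, adjusted p = 0.0415). Pvr, a ligand of TIGIT, was the second in CD18fl/fl BMDCs (1.68, SE 0.30, adjusted p = 0.0357). Adding the block removed this split, as Cd80 and Pvr then each passed with LPS in CD18fl/fl and in CD18CD11c cKO BMDCs. In that fit LPS raised 3 and lowered 1 of the 16 in CD18fl/fl BMDCs, where 12.8% of all genes were called. It raised 3 and lowered 4 of the 17 in CD18CD11c cKO BMDCs, where 20.2% were. Cd200r1, an inhibitory receptor of myeloid cells, fell with LPS in CD18fl/fl (-1.72, SE 0.33, adjusted p = 0.0424) and in CD18CD11c cKO BMDCs (-1.88, SE 0.26, adjusted p = 0.021).

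Of 19 other genes known from tolerogenic dendritic cells, all passed the filter, and LPS raised 3 (Hmox1, Ebi3 and Tnfsf10) and lowered 1 (Entpd1) in CD18fl/fl and raised 4 and lowered 1 in CD18CD11c cKO BMDCs, where Tsc22d3, a glucocorticoid-induced gene, was also raised. Of all genes, 3.89% and 3.99% were called in these comparisons. With the block, LPS raised 7 and lowered 1 of the 19 in CD18fl/fl BMDCs, where 12.8% of all genes were called. It raised 9 and lowered 1 in CD18CD11c cKO BMDCs, where 20.2% were. Hmox1, the stress-induced haem oxygenase, rose from 136 ± 43.5 to 1092 ± 475.5 CPM (SD, n = 3) in CD18fl/fl and from 96.5 ± 47.1 to 607 ± 162 CPM in CD18CD11c cKO BMDCs (log2 fold changes 3.01, SE 0.44, edgeR adjusted p = 0.02, and 2.59, SE 0.46, adjusted p = 0.0339). Ebi3, a subunit of IL-27 and IL-35, rose by 2.22 (SE 0.25, adjusted p = 0.0138) and 1.77 (SE 0.32, adjusted p = 0.0363) on the log2 scale. Tnfsf10, the death ligand TRAIL, rose from a low level by 2.96 (SE 0.62, adjusted p = 0.0493) and 2.69 (SE 0.54, adjusted p = 0.045). Entpd1, which encodes the ATP-degrading CD39, had log2 fold changes of -1.99 (SE 0.28, adjusted p = 0.0181) and -1.68 (SE 0.31, adjusted p = 0.0394). The median log2 fold change of the list with LPS was 1.42 in CD18fl/fl and 1.08 in CD18CD11c cKO BMDCs, against -0.02 and -0.01 over all genes. Between genotypes, Anxa1 was higher in CD18CD11c cKO BMDCs without overlap in both states. It passed with the block (0.98, SE 0.19, edgeR adjusted p = 0.0127 unstimulated, and 1.24, SE 0.13, adjusted p = 0.00641 after LPS) and not without it. The block called 2 genes of this list lower unstimulated and 6 lower after LPS.

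Around TGF-β, 19 of 21 genes were tested in CD18fl/fl BMDCs. The receptor genes Tgfbr2 (log2 fold change -2.35, SE 0.44, edgeR adjusted p = 0.0386) and Tgfbr1 (-1.46, SE 0.26, adjusted p = 0.036) fell with LPS, and the SMAD corepressor gene Tgif1 rose (1.23, SE 0.25, adjusted p = 0.0465). In CD18CD11c cKO BMDCs, 1 of 18 was called (Tgfbr1, -1.55, SE 0.23, edgeR adjusted p = 0.0217), a share near the 3.99% of all genes (3.89% in CD18fl/fl). With the block, LPS raised 4 and lowered 2 of these 18, with Tgfbr2 and Tgif1 among those called, where 20.2% of all genes were. In CD18fl/fl BMDCs the block called 1 higher and 3 lower of 19, where 12.8% of all genes were called. Thbs1, whose product thrombospondin-1 activates latent TGF-β, measured 593 ± 125 CPM in unstimulated CD18fl/fl and 129 ± 65.5 CPM in CD18CD11c cKO BMDCs (SD, n = 3), and 727 ± 93.2 against 246 ± 32.4 CPM after LPS. It did not overlap between genotypes in either state and passed with the block and not without it (-2.24, SE 0.20, adjusted p = 0.00298, and -1.59, SE 0.16, adjusted p = 0.00641). Without the block, LPS called none of the 13 genes of IL-10 reception and regulation in either genotype. The same held for the 14 tested of the tryptophan-kynurenine pathway and the 10 and 12 tested of retinoic acid metabolism. With the block, LPS called 1 IL-10 list gene higher in CD18fl/fl and 3 higher in CD18CD11c cKO BMDCs. Tryptophan-kynurenine calls were 1 lower in CD18fl/fl, and 2 higher and 2 lower in CD18CD11c cKO BMDCs. Retinoic acid calls were 3 and 2, all lower. Of all genes, 12.8% and 20.2% were called with the block. Between genotypes, no gene at all was called without the block (0% in both states), these lists included. With it, the unstimulated comparison called 6 of 13 IL-10 list genes, all lower in CD18CD11c cKO BMDCs, where 20.2% of all genes were called. Among the 6 was Sbno2, a nuclear mediator of IL-10 responses (41.6 ± 3.80 against 22.1 ± 1.65 CPM, SD, n = 3, log2 fold change -0.86, SE 0.14, adjusted p = 0.00786). In the same comparison the block called 2 higher and 3 lower of 11 retinoic acid genes, and 5 lower of 19 TGF-β genes. It called 1 higher and 3 lower of 14 tryptophan-kynurenine genes. In each of the B7 (17 tested) and other tolerogenic (19 tested) lists it called 2 higher and 2 lower. After LPS, where 10.1% of all genes were called, it called none of the IL-10 or retinoic acid lists. It called 2 higher and 6 lower of 19 other tolerogenic genes, and at most 2 in either direction of each other list.

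Patterns over the 12 libraries were compared by Pearson's r of log2 CPM, as a description across libraries that share the replicate 3 difference. Of 11487 genes compared, those most like Vsir were Rasa3 (r = 0.977), Fos (0.975) and Gltp (0.972), and those most like Cd274 were Zfp523 (0.984), Txnrd1 (0.981) and Sod2 (0.975). Tgfb1 went with Man2b2 (0.984), Hipk1 (0.981) and Trpv2 (0.976), and Pdcd1lg2 with 9130008F23Rik (0.973), Glipr2 (0.971) and Rabgap1l (0.969). The nearest genes were Npr1 (0.984), Ndrg4 (0.968) and Mab21l3 (0.966) for Ido1, Fbxw17 (0.948), Mab21l3 (0.944) and 1110032F04Rik (0.942) for Ido2, and Abhd8 (0.931), Ndrg1 (0.921) and Etnk2 (0.916) for Il10. For Lgals9 they were Tspyl2 (0.950), Mov10 (0.947) and Gm16201 (0.924), for Havcr2 Dtnbp1 (0.939), Mpc1 (0.936) and Ap2s1 (0.931), and for Aldh1a2 Ccl4 (0.921), Sh3bgrl (0.908) and Cd69 (0.908). Among the 10 genes themselves, the neighbours Ido1 and Ido2 had r = 0.92 and Cd274 and Lgals9 r = 0.81, while the neighbours Cd274 and Pdcd1lg2 had r = 0.38. Tgfb1 and Pdcd1lg2 ran opposite (r = -0.95), as did Cd274 and Vsir (r = -0.70).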

How the data were processed

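RNA of MHCII+ BMDCs was sequenced as poly(A) libraries, and the authors aligned and counted reads per gene in CLC Genomics Workbench against the mouse genome, for which the paper gives GRCm39 and the submitters' processing notes GRCm38. Positions in the tables matched GRCm39. The deposited total gene read counts, raw and per library, were used, with exon, intron and unique reads as checks, and other columns (TPM, RPKM) were not. Groups followed the labels, with 3 libraries each. edgeR 4.0.16 in R 4.3.3 (TMM scaling, quasi-likelihood test, filterByExpr with a minimum count of 10, Benjamini-Hochberg adjusted p threshold 0.05) was fitted for each comparison on its 6 libraries and across all genes, and the interaction on 12 libraries. Scripts were tested on simulated data. SE was the log2 fold change divided by the root of F. Levels per length used exon length. Likeness used log2 CPM with a prior count of 2.

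The block took the replicate numbers in the library labels as pairs. Same-numbered libraries deviated together from their group means in every pair (r between 0.265 and 0.716, against between -0.571 and 0.334 for other numbers). Every negative r involved a library numbered 3, and numbers 1 and 2 were poorly told apart. For LPS in CD18fl/fl, r was 0.278 between unstimulated library 1 and LPS-treated library 2, against 0.265 for the libraries numbered 2. The values thus set the libraries numbered 3 apart and do not establish pairs for numbers 1 and 2. The labels do not say what a number stands for. Between 95.1% and 96.2% of gene reads were unique, and no library pair agreed within sampling noise. Intervals and floors of 3 reads cover counting error only. Named were the 10 genes, Itgb2 and the 3 genes most like each of the 10. From each list, up to 4 called genes per LPS comparison with the largest change were named. Between genotypes, up to 3 genes of a list with the smallest p were eligible, and not all of them are named. Further names were added with values known. The members and lists were chosen with earlier results of these data known. Alternatives were DESeq2 1.42.0, library size scaling, no filter, exon reads (added after seeing the data), a 12-library fit, the block with and without an exon length offset, replicates 1 and 2 only, and leaving out each library.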

Additional observations from a re-analysis of the deposited data

How the results depend on the processing

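Of the 10 genes, the number called with LPS in CD18fl/fl BMDCs was 1, and became 2 without a filter or in 1 fit on 12 libraries, 4 with DESeq2, 5 with the replicate block, 4 with the block and a length offset and 6 with replicates 1 and 2 only, with a range of 0 to 4 when 1 library was left out. In CD18CD11c cKO BMDCs it was 2, became 1 with scaling to library size, and ranged from 0 to 3 without 1 library. The 3 included Il10, which passed the filter there only through its LPS-treated libraries. In both comparisons it was 0 without replicate 1 or 2 of either state, in fits that called 0 genes of any kind in CD18fl/fl and at most 21 higher and 5 lower in CD18CD11c cKO BMDCs. Between genotypes it was 0 in both states, with or without any 1 library. Unstimulated it became 1 with DESeq2 or with replicates 1 and 2 only, 4 with the block and 3 with the block and offset. After LPS it became 1 with DESeq2 and 2 with the block, with the block and offset or with replicates 1 and 2 only. The block changed no call of the 10 genes other than those given with the results. The interaction stayed at 0.

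Over all genes, calls with LPS ranged from 0 to 6140 in CD18fl/fl (496 as reported) and from 0 to 2560 in CD18CD11c cKO BMDCs (506), calls between genotypes from 0 to 2606 unstimulated and from 0 to 1262 after LPS (0 each), and interaction calls from 0 to 1. With library size scaling, the all-gene median moved on the log2 scale to -0.32, -0.23, -0.44 and -0.37 in these 4 comparisons, and the split of calls from 263 higher and 233 lower to 143 and 304 in CD18fl/fl and from 283 and 223 to 186 and 300 in CD18CD11c cKO BMDCs. Vsir and Cd274 kept their directions under it. The mean of Lgals9 in unstimulated CD18fl/fl BMDCs became 58.2 CPM.

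Log2 fold changes changed sign, none of them called, for Ido1 with LPS in CD18fl/fl (-0.24 with library size scaling) and Aldh1a2 with LPS in CD18CD11c cKO BMDCs (-1.03 with replicates 1 and 2 only). Between unstimulated genotypes they did for Ido1 (0.01 from exon reads), Cd274 (0.01 with replicates 1 and 2 only) and Havcr2 (-0.17 with library size scaling). Between LPS-treated genotypes they did for Il10 (-0.04 with library size scaling), Aldh1a2 (-0.32 with replicates 1 and 2 only) and Havcr2 (-0.14 with library size scaling, -0.10 with the block, -0.05 with the block and offset), and in the interaction for Havcr2 (0.03, 0.03 and 0.00). Leaving out 1 library, values that changed sign ranged with LPS in CD18fl/fl from -0.04 to 3.21 for Il10 and from -0.98 to 0.66 for Ido1, and in CD18CD11c cKO BMDCs from -1.78 to 1.97 for Aldh1a2 and from -0.17 to 1.09 for Havcr2. Between unstimulated genotypes they ranged from -0.84 to 0.52 for Ido1, from -0.87 to 0.56 for Ido2 and from -0.91 to 0.42 for Cd274. Between LPS-treated genotypes they ranged from -0.39 to 1.62 for Il10, from -0.85 to 0.13 for Tgfb1, from -0.18 to 1.10 for Ido2, from -2.14 to 2.58 for Aldh1a2 and from -0.72 to 0.57 for Havcr2. In the interaction they ranged from -0.22 to 0.86 for Tgfb1, -0.09 to 1.47 for Ido2, -3.82 to 0.79 for Aldh1a2, -1.35 to 0.09 for Cd274, -0.88 to 0.10 for Pdcd1lg2, -0.81 to 0.09 for Lgals9, -0.86 to 0.44 for Havcr2 and -0.47 to 0.15 for Vsir. The cause was not tested. Depth limits Il10, Ido1 and Ido2, which lie near the floor in several libraries.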
